A study of Saccharomyces cerevisiae with 96 samples.

Results

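The late phase of a transcription shut-off in wild-type budding yeast, 45 to 60 min after thiolutin was added against 20 to 30 min, is described here from 16 of the 96 arrays of the series. The members are the arrays titled wild type (Nmd+) at 45, 50 and 60 min, 8 arrays, and at 20, 25 and 30 min, 8 arrays, chosen by title from 3 time courses that were numbered as replicates. The study set a *upf1*Δ strain (Nmd-) beside a *UPF1* strain (Nmd+) to learn which RNAs depend on nonsense-mediated mRNA decay (NMD), and followed each strain over 16 times after the drug. The Nmd+ strain was of the S288C background (*MAT*α, with *CUP1* and *SUC2* and with the alleles *flo8-1*, *flo1*, *gal2*, *mal* and *mel*), and the Nmd- strain YRZ1 carried the same alleles with *upf1*Δ::KanMX4. Both were grown to mid-log phase and received thiolutin at 10 µg/ml, so that every array compared, at 20 to 30 min as at 45 to 60 min, came from drugged cells. Total RNA was extracted with hot phenol, primed with oligo(dT) and hybridised as biotinylated cRNA to Affymetrix YG-S98 arrays, 1 array per sample.

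Thiolutin blocks the RNA polymerases of yeast, and it is also known to bind metal ions. Once synthesis stops, an mRNA disappears at the rate set by its decay, which in yeast mostly begins with shortening of the poly(A) tail, goes on with removal of the cap and ends with digestion of the body of the message. Messages for ribosomal proteins and for the enzymes that assemble ribosomes are abundant in growing yeast, and messages of the general stress response take their place when growth stops. The arrays were normalised to equal overall signal, so each value is relative to the average RNA of its array. A message that decays more slowly than the average and a message still being made are therefore both higher at later times, and they cannot be told apart here, nor can a fall per cell be told apart from a rise of everything else.

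The strain labels of the arrays were read first against the gene that was deleted and the marker that replaced it. On the 16 arrays the *UPF1* probe set (*NAM7* in the annotation) lay between 5.42 and 6.40 log2 units and KanMX4 between 3.34 and 5.35, against 1.93 to 3.81 for *UPF1* and 11.65 to 12.54 for KanMX4 on the 44 Nmd- arrays used. An Nmd+ array at 20 min (replicate 1) and an Nmd+ array at 60 min (replicate 3) carried KanMX4 signals of 8.28 and 11.28 and were left out. Of the α-cell genes, *MF(ALPHA)1* averaged 11.18 at 45 to 60 min and 11.34 at 20 to 30 min, and *SAG1* 10.67 and 11.03. *STE3* averaged 8.36 and 9, and *MF(ALPHA)2* 8.41 and 9.41, a fall of 0.88 (limma adjusted p = 0.000636). Averages of a-cell genes ranged from *STE2*, at 2.87 and 2.80, to *MFA2*, at 6.88 and 6.91. The sporulation gene *SPO11* averaged 3.42 and 3.70, and *DMC1* averaged 4.84 and 4.37 on a probe set. No a-cell or sporulation gene of this check was called. A further array stood apart within its course. In course 2 the median of 107 ribosomal protein probe sets, relative to 0 and 2 min, was -0.35 at 30 min, -0.44 at 35 min, -1.67 at 40 min, -0.49 at 45 min, -1.14 at 50 min and -1.28 at 60 min, so that the array labelled 45 min was close to the one labelled 35 min and the array labelled 40 min lay below those of 50 and 60 min. In course 1 the same median was -1.25 at 40 min and -1.57 at 45 min, and in course 3 it was -1.45 at 40 min and -1.63 at 45 min. Both arrays were kept under their labels, and whether the labels of the pair were exchanged was not tested. The 40 min array is in neither window, and without the 45 min array 251 probe sets were higher and 534 lower, against 224 and 460 with it.

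Between 45 to 60 min and 20 to 30 min, 224 of 9275 probe sets were higher and 460 were lower, 2.42% and 4.96% of those tested (limma with the time course as a block, Benjamini-Hochberg adjusted p under 0.05 and at least 1.5-fold). The higher ones held 172 named genes, with *GRE1*, *SPS100* and *SPG4* at the largest changes. The lower ones held 331 named genes, and the ribosomal protein and aminoacyl-tRNA synthetase lists had the largest shares of members among them. The median change was 0.72 log2 units among the higher and -0.83 among the lower, against 0.02 over all probe sets, and 46 and 117 of them changed by at least 2-fold. Arrays of a course come from 1 culture, and with the mean of each course and window as the unit (3 courses) 116 were higher and 315 lower. With the arrays scaled to the study's set of stable reference transcripts the median of all probe sets moved by -0.203, and 79 were higher and 954 lower. Scan period and course fall together, course 1 having been scanned in the first period. Within it 30 were higher and 125 lower, and within the second period, courses 2 and 3, 269 were higher and 461 lower. With the chip lot as a second block the counts were 109 and 264, where 3 of the 16 arrays with a blank lot were taken as a lot of their own. Among the genes named below, *HXT2*, *GAP1*, *BUD4*, *HTB2*, *HSP30*, *PRE6*, *PDR10*, *PXA1*, *GTT1*, *ECM29*, *STF1*, *GPX1*, *ATH1*, *ATG8*, *PFK26* and *OYE3* were not called by course means, and there were others. By course means fewer members of several lists described below were called. The general stress list had 4 higher, against 8 in the main comparison, and the thioredoxin, glutathione and peroxide list 0, against 6. In the iron and drug lists 2 each were higher, against 5 and 6, and in the vacuole list 2, against 4. The cell wall list had 5 higher, against 6, and the meiosis list 4 both times. In the Hsp70 list 1 probe set was lower, against 2.

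The levels of the called probe sets were also read at times outside the windows compared. The 224 higher ones had a median level of 7.63 at 45 to 60 min and 6.84 at 20 to 30 min, and of 6.24 at 0 and 2 min. The 460 lower ones had a median level of 7.46 at 45 to 60 min and 8.40 at 20 to 30 min, and of 9.14 at 0 and 2 min. At 35 and 40 min, times that entered neither window, 190 of the 224 and 415 of the 460 had a mean between those of both windows, against 3509 of 9275. Without the course 2 arrays at 40 and 45 min the same counts were 206 and 434. The called probe sets were chosen for a wide gap between the windows, so a larger share between them than over all probe sets was partly built in. The change had the same sign in all 3 courses for 217 of the higher and 450 of the lower, and for 4094 of all 9275. These signs come from the arrays that chose the called probe sets, so their agreement was largely built in and is no separate support.

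**Figure D1:**
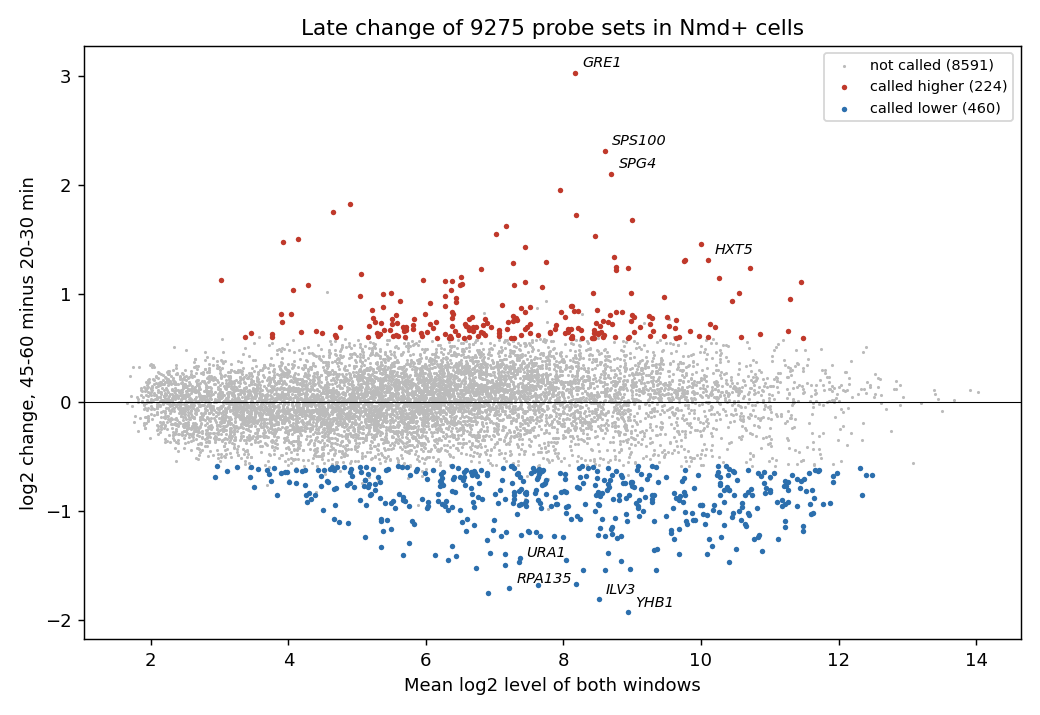
Change of each of 9275 probe sets in Nmd+ cells (45 to 60 minus 20 to 30 min, log2 units, vertical axis) against its mean log2 level in both windows (horizontal axis). The 224 called higher are red, the 460 called lower are blue and the other 8591 are grey, and *GRE1*, at 3.03, lies farthest from 0.

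The largest increase was that of *GRE1*, which encodes a hydrophilin made under dehydration and osmotic stress. Its log2 values at 45 to 60 min ran from 7.68 over a median of 10.20 to 10.57, and at 20 to 30 min from 4.25 over a median of 6.73 to 8.39. All but 1 of the 8 late arrays lay above every array of 20 to 30 min, and the low late value was the course 2 array at 45 min. The change was 3.03 ± 0.38 (SE) log2 units, or 8.16-fold (adjusted p = 8.71e-05, higher in 3 of 3 courses). At 0 and 2 min the gene had averaged 4.36, and the change from there to 6 to 10 min was 0.26, which did not pass the test. *SIP18*, the other hydrophilin of this kind among the leaders, had 7.08, 7.69 and 8.47 as the lowest, median and highest values at 45 to 60 min, and 5.10, 6.21 and 7.34 at 20 to 30 min. It rose by 1.55 ± 0.24 (adjusted p = 0.000336).

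*SPS100*, which encodes a protein of the spore wall, separated the windows completely. Its values ran from 9.15 over 9.78 to 10.18 at 45 to 60 min, and from 6.25 over 7.65 to 8.41 at 20 to 30 min. The change was 2.31 ± 0.27 (4.96-fold, adjusted p = 5.55e-05). Other genes of meiosis and sporulation did not follow it as a group. Of 70 probe sets on that list 4 were higher and 0 were lower, with a median of 0.05, and the other named risers were *SGA1*, a glucoamylase of sporulating cells, at 0.64 and 0.65 on its probe sets, and *RIM4*, an RNA-binding regulator of meiosis, at 0.74.

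*SPG4*, needed for survival at high temperature in stationary phase, ranged from 9.37 over 9.65 to 10.17 at 45 to 60 min, and from 4.81 over 7.74 to 9.75 at 20 to 30 min. The lowest of these, 4.81, was the 20 min array of course 2, and 3 of 8 late arrays exceeded every array of the earlier window. The change was 2.10 ± 0.38 (adjusted p = 0.000994), with 1.86, 3.00 and 1.21 in courses 1, 2 and 3. *HXT5*, a hexose transporter that yeast makes when growth is slow, ran from 10.17 over 10.67 to 11.30 at 45 to 60 min, and from 8.33 over 9.43 to 10.85 at 20 to 30 min. It rose by 1.31 log2 units, and it belongs to the reference set of stable transcripts that the study drew up. Its mean had been 5.86 at 0 and 2 min, so most of its climb came before the windows compared.

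**Figure D2:**
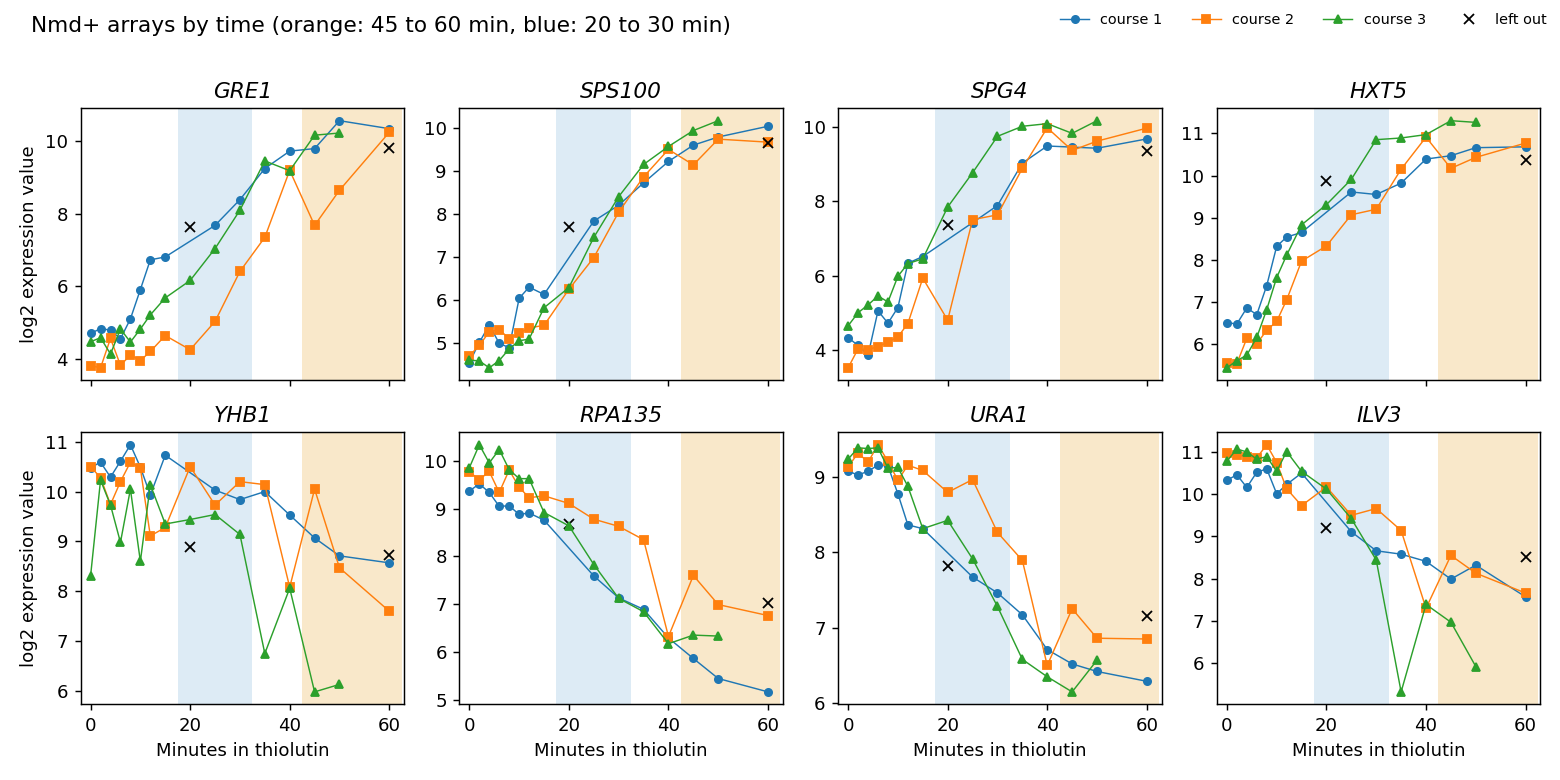
Deposited log2 values of 8 genes on each Nmd+ array against minutes in thiolutin, 1 line per time course, with 45 to 60 min shaded orange and 20 to 30 min shaded blue; crosses are the 2 arrays left out. The means of *GRE1*, *SPS100*, *SPG4* and *HXT5* are higher at 45 to 60 than at 20 to 30 min and those of *YHB1*, *RPA135*, *URA1* and *ILV3* lower, and in course 2 *GRE1* stands at 7.68 at 45 min, below both other courses.

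Other genes among the largest increases were *TKL2*, *STL1*, *ADH7*, *HBT1* and *YCL048W-A*. All 3 probe sets of *TKL2*, the minor transketolase of the pentose phosphate pathway, rose, by 1.33, 1.72 and 1.96. The brightest of them ran from 8.31 over 9.09 to 10.44 at 45 to 60 min and from 6.96 over 7.99 to 9.66 at 20 to 30 min. *STL1*, the glycerol importer of the plasma membrane, was at 4.87, 5.86 and 6.24 at 45 to 60 min and at 2.81, 4.12 and 5.72 at 20 to 30 min. At 20 to 30 min 7 of 8 of its values were no higher than the KanMX4 signal of the same 16 arrays reached (5.35), so it was called higher but the size of its fitted change, 1.83, is uncertain. *ADH7*, an NADPH-dependent alcohol dehydrogenase, was at 8.21, 9.23 and 11.40 at 45 to 60 min and at 7.05, 8.14 and 10.03 at 20 to 30 min. In 3 of 8 late arrays it exceeded every array of 20 to 30 min, and the change of 1.68 ± 0.33 (adjusted p = 0.00179) was 0.73, 2.26 and 1.90 in courses 1, 2 and 3. *HBT1*, a protein of polarised growth and mating projections, rose by 1.45, and *YCL048W-A*, a small open reading frame, by 1.53. Both had 7 of 8 late arrays above every array of 20 to 30 min.

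Counts of list members called, here and below, are to be read beside the 2.42% higher and 4.96% lower over all probe sets. As a group, the general stress and dehydration genes rose in 8 of 31 probe sets (25.8%) and fell in 0, with a median of 0.48. Besides *GRE1* and *SIP18* they included *ALD3*, a stress-induced aldehyde dehydrogenase, at 0.97. Their median change was 0.34, 0.67 and 0.26 in courses 1, 2 and 3. On the scale of the reference transcripts 4 were higher and the median was 0.28. Genes of thioredoxin, glutathione and peroxide defence were higher in 6 of 35 probe sets with a median of 0.17, led by *OYE3*, an NADPH oxidoreductase, at 1.01, *GPX1*, a glutathione peroxidase, at 0.72, and *GTT1*, a glutathione transferase, at 0.66. That median was -0.04 on the scale of the reference transcripts, with 1 higher and 1 lower.

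Heat shock genes did not move together. Both stress-inducible cytosolic Hsp70 genes rose. *SSA4* was at 11.32, 12.13 and 12.60 at 45 to 60 min and at 10.39, 11.00 and 11.50 at 20 to 30 min (change 1.11 ± 0.15, adjusted p = 0.000156). *SSA3* ran from 6.15 to 7.77 at 45 to 60 min and from 5.16 to 6.41 at 20 to 30 min (1.11 ± 0.16). The ribosome-bound partners *SSZ1* and *ZUO1*, which help new chains fold as they leave the ribosome, fell by 0.80 and 0.67. The other 14 of 18 probe sets on this list did not pass, among them *SSA2*, the constitutive Hsp70, at -0.39 (adjusted p = 0.107), and *SIS1*, its Hsp40 partner, at -0.04. Of 23 probe sets for Hsp104, Hsp90 and the small heat shock proteins, *HSP30*, a membrane protein, was called higher at 0.59, and a dim probe set of the phosphatase *PPT1* was called lower at -1.41 while the brighter *PPT1* probe set was at 0.31. *HSP26* and *HSP12* were at 0.54 and 0.51 with adjusted p of 0.0033 and 0.00291, short of the 1.5-fold minimum, and *HSP104* was at 0.10 (adjusted p = 0.78).

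The proteasome list shifted upward by little. Of its 50 probe sets 44 were above 0 and 3 were called higher, with a median of 0.21. The calls were *PRE6*, a subunit of the catalytic core, at 0.60, and 2 of the 8 probe sets of *ECM29*, a proteasome-associated scaffold, whose probe sets ran from -0.24 to 0.92. *RPN12* and *RPN8*, of the regulatory particle, were at 0.58 and 0.56 with adjusted p of 0.00221 and 0.00495, and *RPN4*, the transcription factor that drives proteasome genes, was at 0.15 and did not pass. By course means 0 of the 50 were called. The 72 probe sets of mitochondrial ribosomal proteins behaved in a like way, with 66 above 0, a median of 0.22 and 0 called, and their median was 0.09, 0.55 and -0.11 in courses 1, 2 and 3. On the scale of the reference transcripts both medians were 0.01.

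Metal, drug and membrane genes gave smaller groups. In the iron regulon 5 of 32 probe sets were higher and 1 was lower. *FIT3*, a cell wall mannoprotein that holds iron-siderophore complexes, was at 10.86, 11.17 and 11.94 at 45 to 60 min and at 9.70, 10.12 and 10.58 at 20 to 30 min, with no overlap (1.23 ± 0.18, adjusted p = 0.000211). Its relative *FIT2* rose by 1.14, while *FRE4*, a siderophore reductase, fell by 1.13. *CTR2*, the copper exporter of the vacuole, rose by 0.80, and *CUP2*, the copper-sensing activator, by 0.59. Drug resistance genes rose in 6 of 41 probe sets, with the ABC transporters *PDR15* at 1.01 and *PDR10* at 0.64 and the repressor *RDR1* at 0.68. On the scale of the reference transcripts the medians of the iron and drug lists went below 0, to -0.02 and -0.06.

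The cell wall list split in both directions, with 6 higher and 6 lower of 61 probe sets. *PST1*, a wall protein induced through the cell integrity pathway, was at 10.60, 10.95 and 11.17 at 45 to 60 min and at 9.52, 9.99 and 10.54 at 20 to 30 min, again with no overlap (0.93 ± 0.11, adjusted p = 5.55e-05). The other members called higher, named after their values were seen, were *PIR3*, a wall glycoprotein, at 1.31, *SRL3* at 1.09, *RLM1*, the transcription factor of that pathway, at 0.86, *SLT2*, its MAP kinase, at 0.78, and *YPS1*, a wall protease, at 0.72. *PRM5*, another gene of that pathway, and *MSG5*, a phosphatase of MAP kinases, rose by 0.70 and 0.60. The calls in the other direction were for the synthesis of wall glucan. *FKS1*, the main glucan synthase, was lower on 5 of its 8 probe sets, and its brightest was at 9.88, 10.54 and 11.07 at 45 to 60 min and at 10.96, 11.33 and 11.69 at 20 to 30 min (-0.83 ± 0.12). *GAS3*, of a family that remodels glucan, fell by 1.15.

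Energy and turnover lists had a few members each among the higher. *NDE2*, an external NADH dehydrogenase of mitochondria, rose by 1.23, and *STF1*, an ATPase inhibitor, by 0.69, whereas *CYC1*, cytochrome c, fell by 0.95, with 38 of 41 respiratory probe sets not called. *POT1*, the thiolase of fatty acid oxidation, rose by 1.11 and *PXA1*, a subunit of the peroxisomal importer of fatty acids, by 0.65, and *PXA1* had no overlap between windows, although all its values were below 5.35, the highest KanMX4 signal of these arrays. In the vacuole and autophagy list 4 of 44 rose, among them *ATG8*, the ubiquitin-like protein of autophagosomes, at 0.79 (9.56 to 10.18 at 45 to 60 min, 8.68 to 9.84 at 20 to 30 min). *ICL1*, the first enzyme of the glyoxylate cycle, rose by 0.83, *PFK26*, which makes fructose 2,6-bisphosphate, by 0.88, and *ATH1*, a trehalase, by 0.76, and *HXT2*, a glucose transporter, fell by 0.85.

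**Figure D3:**
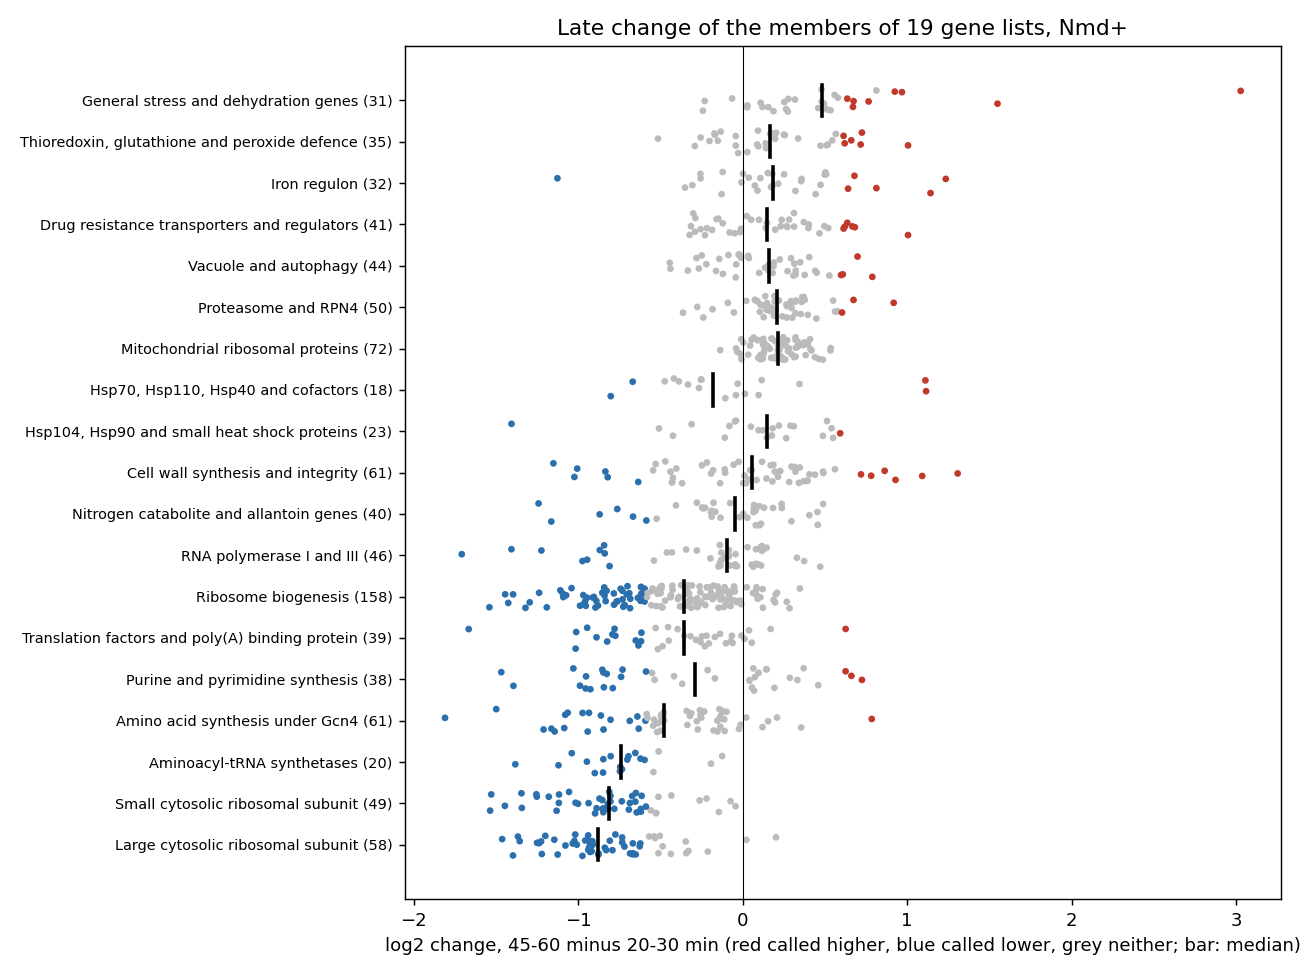
Late change in Nmd+ cells (45 to 60 minus 20 to 30 min, log2 units, horizontal axis) of each probe set on 19 gene lists, with the number of probe sets in brackets. Red is called higher, blue called lower, grey neither, and the black bar is the median, which runs from 0.48 for the general stress genes to -0.88 for the large ribosomal subunit; the vertical scatter within a list has no meaning.

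Messages for the cytosolic ribosome fell as a body. In the large subunit 45 of 58 probe sets (77.6%) were lower and 0 were higher, and in the small subunit 39 of 49 (79.6%) were lower and 0 were higher. The medians were -0.88 and -0.81. In courses 1, 2 and 3 the large subunit was at -1.07, -0.73 and -0.72, and the small subunit at -0.90, -0.76 and -0.73. *RPL14A*, a protein of the large subunit, was at 9.70, 10.61 and 11.30 at 45 to 60 min and at 11.33, 11.78 and 12.35 at 20 to 30 min, with no overlap (-1.15 ± 0.12, adjusted p = 4e-05). *RPL13A* fell by 1.36, and *RPL7A* was lower on 2 of its 3 probe sets, which ran from -1.24 to -0.49. *RPL17B* fell on all 3 of its probe sets, by 1.37 to 1.46 log2 units. In the small subunit, *RPS9B* was at 6.54, 7.84 and 9.54 at 45 to 60 min and at 8.42, 9.34 and 10.27 at 20 to 30 min on its lower probe set (-1.54 ± 0.21), and *RPS0B* fell by 1.53 and, on its brighter probe set, by 1.18, and *RPS26B* fell by 1.45. *RPS29B* was at 9.83, 10.24 and 10.63 at 45 to 60 min and at 10.69, 11.08 and 11.40 at 20 to 30 min, with no overlap (-0.82 ± 0.10). Most ribosomal proteins of yeast are made from a pair of near-identical genes, and probe sets of this design can pick up both copies, so a value is not certain to be that of the gene named. Without the 45 min array of course 2 the counts were 47 and 40. They were 37 and 36 by course means, and 27 and 24 with chip lot as a second block. With chip lot the medians were -0.795 and -0.719.

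Ribosomal protein messages kept close to their starting level for the first minutes and then dropped steeply, whereas messages for ribosome assembly had dropped by 20 to 30 min. Relative to 0 and 2 min, the median of the large subunit list was -0.03 at 6 to 10 min, -0.45 at 20 to 30 min, -1.07 at 35 to 40 min and -1.41 at 45 to 60 min. That of the 158 ribosome biogenesis probe sets was -0.43 at 6 to 10 min, -1.64 at 20 to 30 min, -2.14 at 35 to 40 min and -2.15 at 45 to 60 min. In the comparison of 6 to 10 with 0 to 2 min, which called 1.53% of all probe sets higher and 2.38% lower, 41 of the 158 were lower, and 1 of 58 and 1 of 49 for the ribosomal subunits. That early count over all probe sets rested on the courses used, 221 lower with 3 courses and 25 to 172 with 1 left out. In the late comparison 53 of the 158 biogenesis probe sets were lower and 0 were higher, with a median of -0.36 that was -0.26, -0.71 and -0.19 in courses 1, 2 and 3. By course means 36 of the 158 were lower, and with chip lot as a second block 21.

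**Figure D4:**
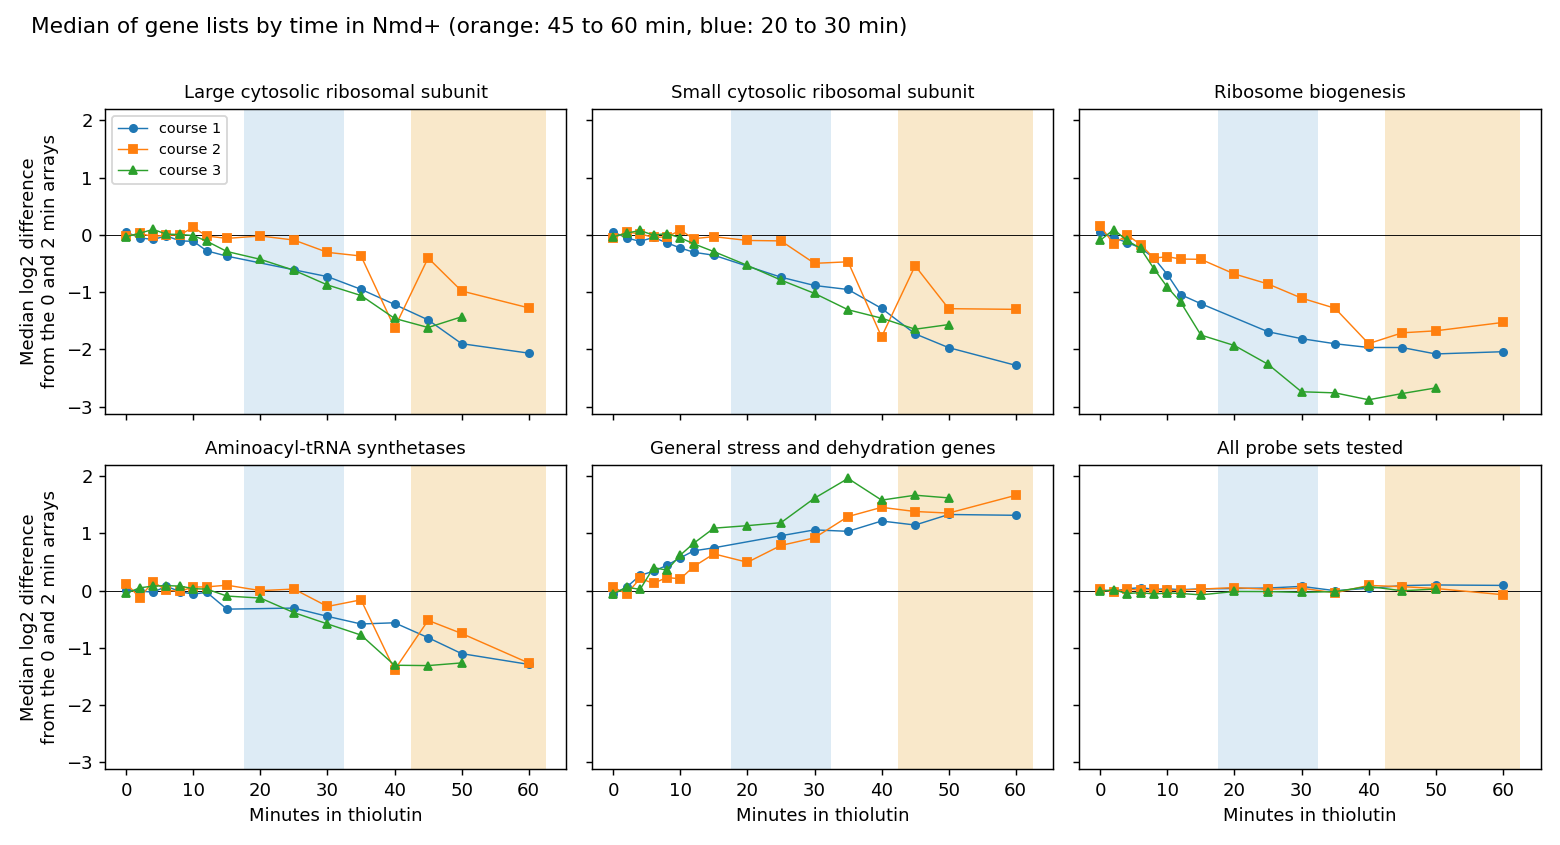
Median difference of gene lists from their own 0 and 2 min level (log2 units, vertical axis) against minutes in thiolutin, 1 line per Nmd+ course, with 45 to 60 min shaded orange and 20 to 30 min shaded blue. The ribosomal subunits and the tRNA synthetases fall mainly after 20 min, ribosome biogenesis falls from the first minutes and flattens, and the median of all 9275 probe sets stays close to 0.

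Examples of the 53 from ribosome assembly were *RRB1*, a chaperone of a large-subunit protein, *BMS1*, a GTPase of small-subunit processing, and *DBP2*, a DEAD-box RNA helicase. *RRB1* was at 5.16, 5.46 and 6.40 at 45 to 60 min and at 6.15, 7.04 and 7.67 at 20 to 30 min (-1.44 ± 0.15, adjusted p = 3.67e-05). *BMS1* fell by 1.09 and *DBP2* by 1.54 and 1.43 on its probe sets. Both large subunits of RNA polymerase I, which makes the ribosomal RNA precursor, fell. *RPA135* was at 5.16, 6.34 and 7.60 at 45 to 60 min and at 7.12, 8.23 and 9.11 at 20 to 30 min (-1.71 ± 0.19, adjusted p = 4.23e-05), and *RPA190* fell by 1.22 on its brightest probe set and was lower on 3 of 7. In all, 9 of 46 probe sets for RNA polymerases I and III were lower (19.6%, against 4.96% of all tested). By course means 7 of them were lower, and with chip lot as a second block 4. For RNA polymerase II and its general factors 0 of 39 were called, and for Mediator and SAGA 0 of 55. *KAP123*, the importin that carries ribosomal proteins into the nucleus, was at 5.48, 5.86 and 7.01 at 45 to 60 min and at 6.57, 7.77 and 8.34 at 20 to 30 min (-1.52 ± 0.19). Its list of 61 nuclear pore and transport probe sets had 3 lower (4.92%, close to the 4.96% of all tested) and a median of -0.14.

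The messages that feed translation fell alongside. Aminoacyl-tRNA synthetases, which load tRNAs with amino acids, were lower in 16 of 20 probe sets (80%), and all 20 were below 0. *YHR020W*, a prolyl-tRNA synthetase, was at 7.60, 7.80 and 8.69 at 45 to 60 min and at 8.52, 9.27 and 9.93 at 20 to 30 min (-1.38 ± 0.15, adjusted p = 3.67e-05), and *ALA1* and *HTS1*, for alanine and histidine, fell by 0.85 and 0.73. The median of the synthetase list was -0.61, -0.79 and -0.81 in courses 1, 2 and 3. Of its 20 probe sets 13 were lower by course means and 12 with chip lot as a second block. Of 39 probe sets for translation factors and poly(A)-binding protein 13 were lower and 1 was higher. By course means 8 were lower and 0 higher, and with chip lot as a second block 4 and 0. *YEF3*, elongation factor 3, was at 10.51, 11.01 and 12.20 at 45 to 60 min and at 11.71, 12.20 and 12.41 at 20 to 30 min (-1.01 ± 0.16), *TEF4* fell by 0.95 and 0.89 on its probe sets, and *PRT1*, of initiation factor 3, by 0.77. *ANB1*, the initiation factor 5A gene of oxygen-starved cells, was at 5.42, 7.21 and 9.58 at 45 to 60 min and at 7.96, 8.59 and 10.23 at 20 to 30 min (-1.67 ± 0.38, adjusted p = 0.00558). Without course 3 its change was -1.39 with an adjusted p of 0.0558.

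Biosynthesis of amino acids and nucleotides fell in part. Of 61 probe sets for amino acid synthesis under the activator Gcn4, 18 were lower and 1 was higher, with a median of -0.48. By course means 15 were lower and 0 higher, and with chip lot as a second block 12 and 0. *ILV1*, threonine deaminase of isoleucine synthesis, had the smallest adjusted p of all probe sets tested. It was at 7.86, 8.09 and 8.43 at 45 to 60 min and at 8.78, 9.22 and 9.65 at 20 to 30 min, with no overlap (-1.14 ± 0.10, adjusted p = 1.12e-05). *ILV3*, later in the same pathway, was at 5.92, 7.83 and 8.55 at 45 to 60 min and at 8.44, 9.46 and 10.17 at 20 to 30 min (-1.81 ± 0.29), and its change was -0.93, -1.66 and -2.88 in courses 1, 2 and 3. *LYS4*, of lysine synthesis, fell by 1.5 log2 units and *GLT1*, glutamate synthase, by 1.21. Among purine and pyrimidine genes 15 of 38 probe sets were lower and 3 were higher. By course means 10 were lower and 0 higher, and with chip lot as a second block 8 and 1. *URA1*, dihydroorotate dehydrogenase of pyrimidine synthesis, was at 6.15, 6.54 and 7.25 at 45 to 60 min and at 7.28, 8.08 and 8.96 at 20 to 30 min, with no overlap (-1.47 ± 0.16, adjusted p = 3.67e-05). *GUA1*, GMP synthase, was at 8.59, 8.86 and 9.67 at 45 to 60 min and at 9.95, 10.34 and 10.67 at 20 to 30 min, also with no overlap (-1.39 ± 0.14), and *APT1*, a purine salvage enzyme, fell by 0.93.

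Nitrogen use, lipids and the cell cycle showed narrower changes. *CAR1*, arginase, was at 7.70, 8.23 and 8.35 at 45 to 60 min and at 8.69, 9.23 and 10.12 at 20 to 30 min, with no overlap (-1.16 ± 0.16), and *ASP1*, an asparaginase, fell by 0.87 and *GAP1*, the general amino acid permease, by 0.67. In all 6 of 40 nitrogen probe sets were lower. *FAS1*, a subunit of fatty acid synthase, was lower on 5 of 8 probe sets, which ran from -1.07 to -0.40, and *FAA4*, an acyl-CoA synthetase, fell by 0.70 with no overlap. *CHS2*, the chitin synthase of the septum, fell by 0.72. *BUD4*, of bud site selection, was lower on 1 of its 6 probe sets, which ran from -0.67 to 0.04. *HTB2*, a histone H2B gene, fell by 0.60, while the other 18 of 19 histone and chromatin assembly probe sets did not pass.

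*YHB1*, the flavohaemoglobin that detoxifies nitric oxide, had the largest fall of a single probe set in the main comparison. It was at 5.98, 8.52 and 10.05 at 45 to 60 min and at 9.14, 9.78 and 10.50 at 20 to 30 min (-1.93 ± 0.33, adjusted p = 0.000636). The highest late value, 10.05, was the 45 min array of course 2, and both late arrays of course 3, at 5.98 and 6.13, were the lowest. The change was -1.15, -1.44 and -3.32 in courses 1, 2 and 3. Other probe sets of the gene were at -1.68, at -1.04 and, for a dim one at 3.00 at 45 to 60 min and 3.04 at 20 to 30 min, at -0.14.

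Across the 16 arrays 20 probe sets (0.216% of those tested) had every late array above every array of 20 to 30 min, and 27 (0.291%) had every late array below. *SPS100*, *FIT3*, *PST1*, *PRM5* and *PXA1* were among the higher ones and *URA1*, *GUA1*, *CAR1*, *RPL14A*, *ILV1*, *RPS29B*, *FAA4* and *BUD4* among the lower. No probe set was called among the 9 of NMD factors, the 40 of deadenylases, Ski complex and exosome, the 44 of ER chaperones and the unfolded protein response, the 54 of DNA replication and the 26 of the subtelomeric *PAU*, *DAN*, *TIR* and *COS* families. Over all probe sets 2.42% were higher and 4.96% lower, so few calls would fall in lists of this size, and 0 says little about the smaller ones. Among 24 probe sets for decapping and decay from the 5' end, *STM1*, a ribosome-associated protein, was the 1 called (4.17% of the list), at -0.85. Of 36 probe sets for known NMD substrates 2 were higher (5.56%), *GPX1* and *RDR1*, and 0 were lower, with a median of 0.07. The study's stable reference transcripts themselves were higher in 16 of 118 probe sets (13.6%) and lower in 1, with a median of 0.18. *HXT5* and *SHC1*, an activator of chitin synthesis in sporulation, at 1.12, were among those that rose.

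The same windows were set side by side in Nmd- cells, whose arrays are separate, to ask whether the late change depends on the strain. In Nmd- cells 840 probe sets were higher (9.06%) and 897 lower (9.67%). Relative to 0 and 2 min, the large subunit list in Nmd- cells stood at -0.32 at 6 to 10 min and -0.14 at 20 to 30 min. The general stress list stood at 0.65 and 0.44. In Nmd+ cells the same lists moved away from the start, from -0.03 to -0.45 and from 0.33 to 1.08. An earlier window close to the start enlarges the late change in Nmd- cells, and why it lay there was not tested. Of the 224 higher in Nmd+ cells 173 were also higher in Nmd- cells and 0 were lower, and of the 460 lower in Nmd+ cells 384 were also lower in Nmd- cells and 0 were higher. *GRE1* changed by 3.81 in Nmd- cells and 3.03 in Nmd+ cells, *SPS100* by 2.92 and 2.31, and *SPG4* by 3.92 and 2.10, and none of these differences passed the test of strain and window together (adjusted p = 0.628, 0.447 and 0.185). *RPA135* changed by -2.57 in Nmd- cells and -1.71 in Nmd+ cells, and *URA1* by -2.01 and -1.47 (adjusted p of the difference 0.259 and 0.44).

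In that test 15 probe sets were higher (0.162%) and 62 lower (0.668%) in Nmd- relative to Nmd+ cells. *AAH1*, adenine deaminase, had the largest difference, -2.18 ± 0.39 (adjusted p = 0.00638), with a late change of -3.03 in Nmd- cells and -0.85 in Nmd+ cells. In Nmd+ cells *AAH1* had been at 7.92 at 0 and 2 min and was already down to a mean of 4.66 at 20 to 30 min. The other leaders in this direction were *NSR1*, a nucleolar protein of ribosome assembly (-2.20 in Nmd- cells, -0.02 in Nmd+ cells), *RRS1* and *DBP8*, both of ribosome assembly (-1.57 and -1.44 in Nmd- cells, 0.02 and 0.09 in Nmd+ cells), and *ERC1*, a membrane transporter (-1.30 in Nmd- cells, 0.25 in Nmd+ cells). In Nmd+ cells these messages too were lower at 20 to 30 min than at 0 and 2 min, with means of 6.47 and 9.89 for *NSR1*, 3.63 and 6.38 for *RRS1*, 4.79 and 6.89 for *DBP8* and 5.47 and 6.80 for *ERC1*. The *AAH1* and *RRS1* levels at 45 to 60 min, at most 4.27 and 3.83, were no higher than the KanMX4 signal reached (5.35) on these arrays, whose cells lack that marker. Those of *DBP8* ran from 4.44 to 5.37, close to that signal at their highest. The ribosome biogenesis list had 8 of the 62, and its median late change was -1.17 in Nmd- cells and -0.36 in Nmd+ cells. Relative to 0 and 2 min that list stood at -0.95 in Nmd- cells and -0.43 in Nmd+ cells at 6 to 10 min. It stood at -0.64 in Nmd- cells and -1.64 in Nmd+ cells at 20 to 30 min, and at -1.67 in Nmd- cells and -2.15 in Nmd+ cells at 45 to 60 min. In Nmd- cells the 20 to 30 min window thus lay closer to the start than 6 to 10 min did, so a strain difference in late change also reflects that earlier window. In the other direction were *SUL1*, a sulfate permease (2.12 in Nmd- cells, 0.42 in Nmd+ cells), *IRC8*, *YAL037C-A*, *YML131W* and *MSC1*, with differences of 1.70, 1.25, 1.12, 1.10 and 0.99. On the Nmd+ arrays compared *YAL037C-A* ran from 2.65 to 4.77, below 5.35, so the size of its difference is uncertain. The counts of strain differences were small and unstable, with 0 to 5 higher and 0 to 29 lower when a replicate number was left out, and 0 in both directions without the courses as a block.

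**Figure D5:**
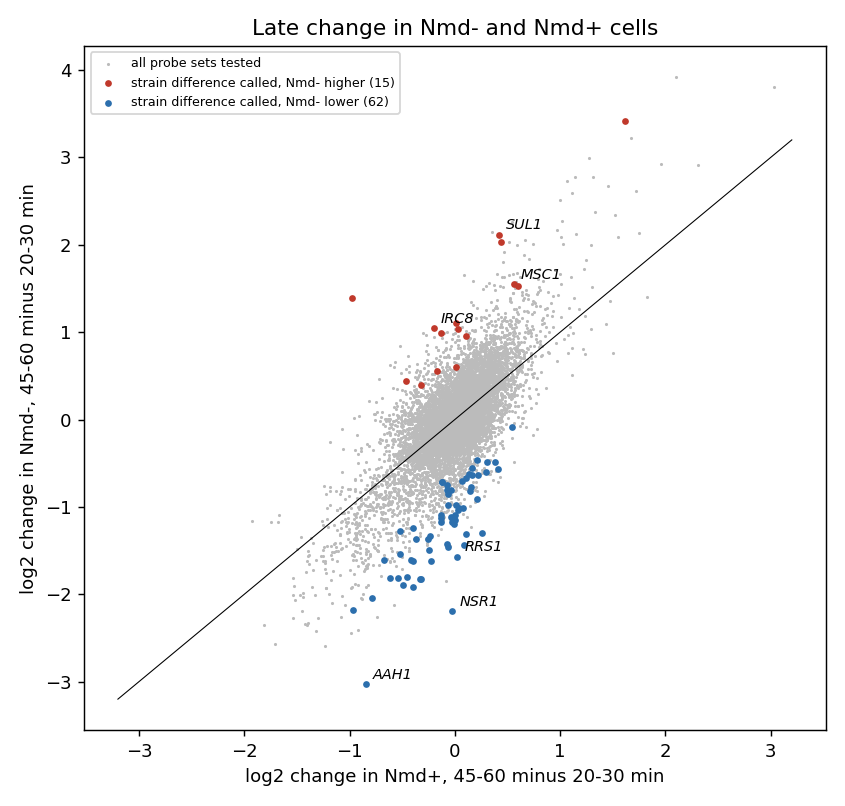
Late change (45 to 60 minus 20 to 30 min, log2 units) in Nmd- cells (vertical axis) against that in Nmd+ cells (horizontal axis) for 9275 probe sets, with the line of equal change. The 15 probe sets with a called strain difference toward Nmd- are red and the 62 in the other direction are blue, among them *AAH1* at -3.03 in Nmd- cells and -0.85 in Nmd+ cells.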

How the data were processed

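The values analysed were the authors' deposited table of log2 expression values, adjusted for background, normalised over arrays and summarised with robust multi-chip average (RMA), whose version is not given in the sources used here. They were taken as log2 because the highest, 14.16, lies above 11.09, the ceiling that natural logs of 16-bit intensities would have. Strain and time came from the sample titles, since the source names call every array *upf1*-. Of 9275 probe sets 6504 had 1 gene name, 328 several and 2443 none, by the array annotation with symbols updated through RefSeq, and 60 control probe sets were left out.

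Windows were compared with limma 3.58.1 in R 4.3.3 (lmFit, eBayes, Benjamini-Hochberg over all probe sets) with the replicate number as a block. A probe set was called where its adjusted p was below 0.05 and its change 1.5-fold or more. The numbers pair the samples: deviations of same-numbered windows correlated at 0.85, 0.34 and 0.72. Values given in threes are the lowest, the median and the highest of the 8 arrays of a window. A fitted change can differ from the difference of the window means, since a window holds unequal numbers of arrays per course. The strain difference was the interaction of strain and window with 6 courses as a block, without the Nmd- arrays at 45 and 50 min of replicate 1, which carried *UPF1* signal. The fit was also run on simulated data with independent noise on each array. Those data held course levels but no chip lot effects or outlying arrays, so they cannot show how the calls hold under these.

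The genes named were the 12 largest increases and 12 largest decreases among called probe sets with 1 name and the same sign in all courses, up to 3 called members of each gene list with the smallest adjusted p, the 5 largest strain differences in each direction, and members of the heat shock, proteasome and histone lists. The members and lists were chosen with earlier results of these data known. Lists are described by counts and medians, with no test of the list. Arrays within a course share a culture, and p-values treat them as separate samples. Alternatives covered the block, the arrays kept, batches, scaling, thresholds and the choice of times.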

Additional observations from a re-analysis of the deposited data

Results flagged for a closer look

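Of 256 groups of 8 arrays looked at, 6 held an array far from the others, fewer than the about 1 in 20 that chance alone would give. The 6 are listed as values to check. Among the 45 to 60 min arrays, the 45 min array of course 2 was high for *RPS0B* (9.90, the others 7.42 to 8.52), *KAP123* (7.01, the others 5.48 to 6.11) and *ASP1* (9.17, the others 8.56 to 8.80). The 60 min array of course 1 was high for an *ECM29* probe set (8.60, the others 7.42 to 7.93). Among the 20 to 30 min arrays, the 20 min array of course 2 was low for *HSP30* (10.16, the others 11.00 to 11.57) and *SPG4* (4.81, the others 7.43 to 9.75).

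The late change differed between the strains by the interaction test for the 5 leading probe sets in each direction. As Nmd- minus Nmd+, the difference was -2.18 for *AAH1*, -2.17 for *NSR1*, -1.59 for *RRS1*, -1.55 for *ERC1* and -1.53 for *DBP8*. It was 1.70 for *SUL1*, 1.25 for *IRC8*, 1.12 for *YAL037C-A*, 1.10 for *YML131W* and 0.99 for *MSC1*. Among these, *YAL037C-A* stayed at or below 4.77 on the Nmd+ arrays compared, where KanMX4 signal reached 5.35.

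KanMX4 signal on the Nmd+ arrays left out was 8.28 at 20 min of replicate 1 and 11.28 at 60 min of replicate 3, against 3.34 to 5.35 on the 16 arrays compared.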

How the results depend on the processing

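The counts, 224 higher and 460 lower, depended on how the courses and batches were treated. Without the replicate block 88 and 222 were called, and by course means 116 higher. With chip lot (blank on 3 arrays, taken as 1 lot) as a second block the counts were 109 and 264, with scan month, chosen after seeing the data, 120 higher, and within scan period 1 30 and 125. Scaling to the reference transcripts gave 79 and 954. Setting 50 and 60 against 20 and 25 min gave 365 higher. With no fold minimum 828 and 813 were called, and with a 2-fold minimum 46 and 117. Leaving out a course gave 120 to 347 higher and 372 to 467 lower, and leaving out an array 165 to 277 and 391 to 534. The cause of these shifts was not tested. Of 116 named probe sets 0 reversed in sign under any alternative. The alternatives reuse arrays on which these probe sets were called, so the kept signs were largely built in and are no separate support. The adjusted p was no longer below 0.05 for 75 within scan period 1, 41 without the block, 37 with chip lot and 35 by course means. These counts leave out the 1.5-fold minimum, so the number of calls lost can be larger.

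The strain difference, 15 higher and 62 lower, gave 0 and 0 without the replicate block, 1 and 30 with all arrays kept, and 0 to 5 and 0 to 29 with a replicate number left out. The early comparison, 142 higher and 221 lower, gave 20 and 39 without the block, and 26 to 171 and 25 to 172 without a course. The number of arrays and of courses limits the precision of all these values.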

Other observations

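Small nucleolar and small nuclear RNAs, mostly made without a long poly(A) tail, are listed under *SNR* names on this array. This group was chosen after its values were seen. Of 63 such probe sets 0 were higher and 7 were lower at 45 to 60 against 20 to 30 min, 48 were below 0, and the median was -0.15, against 2.42% higher, 4.96% lower, 4394 of 9275 below 0 and a median of 0.02 over all probe sets tested. *SNR3* averaged 4.12 at 45 to 60 min and 5.20 at 20 to 30 min (-1.07, limma adjusted p = 0.000744), and *SNR76* averaged 4.59 and 5.32 with no overlap between windows (-0.78, limma adjusted p = 0.000149). These averages lay below 5.35, the highest KanMX4 signal of the arrays compared, so the sizes of both changes are uncertain. Probe sets with no gene name were higher in 41 and lower in 31 of 2443 cases.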
